A study of Homo sapiens with 12 samples.

Results

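The Forkhead (FOX), SOX and KLF genes were followed across 4 treatment groups of SUM149PT, a breast cancer line established from an inflammatory tumour. Genes were taken by symbol from the per-library count tables: FOX followed by a letter from A to S and a digit, SOX followed by digits alone, and KLF followed by digits alone. 1 such symbol was set aside by this choice and is not analysed here. This gave 85 of the 23228 genes counted, of which 49 were Forkhead, 19 SOX and 17 KLF genes. Cells were kept in 5 µM tazemetostat, which inhibits the methyltransferase EZH2 of the Polycomb complex, or in DMSO, starting on day -5. On day 0 they were moved to 2% serum with 5 µM ipatasertib, which inhibits AKT, with tazemetostat, with both or with neither, and RNA was taken at 24 h. The groups are called DMSO, ipatasertib, tazemetostat and combination, and each had 3 libraries, A, B and C. Every group with tazemetostat had thus met it for longer than any group had met ipatasertib. All libraries came from 1 cell line, and the labels do not say that A, B and C were grown separately, so that the p-values rest on a spread between libraries that may be technical.

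Forkhead proteins bind DNA through a winged-helix domain. The FOXO members are phosphorylated by AKT, held by 14-3-3 proteins and kept out of the nucleus, so AKT activity restrains them, while FOXM1 drives genes of the G2 and M phases. SOX proteins bend DNA through an HMG box, and KLF proteins bind GC-rich and CACCC elements through zinc fingers at their C terminus. Many genes of the Forkhead and SOX families direct development and are held silent in other tissues by the Polycomb complex that contains EZH2. In the breast, SOX9 and SOX4 are known from progenitor cells and from basal-like tumours, FOXC1 is a marker of basal-like tumours, and KLF4 and KLF5 are known from epithelial differentiation and growth.

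Gene counts summed to 22355242 to 49970540 per library. The breast epithelial markers EPCAM, CDH1 and 6 keratins were all tested. Of these 8, 7 fell with ipatasertib, 5 fell and 1 rose with tazemetostat, and 6 fell and 1, KRT19, rose with the combination. EPCAM passed in none of these comparisons, while the basal keratin KRT5 went from a mean of 633 CPM under DMSO to 146 after ipatasertib and KRT17 from 592 to 140. Their summed level was 3428 to 3585 CPM (counts scaled to a common library size) under DMSO, 1847 to 2012 after ipatasertib, 2922 to 3231 with tazemetostat and 1825 to 1933 in the combination. PGR, the progesterone receptor, had no count under DMSO or ipatasertib. Of 9 fibroblast markers, 7 were tested, of which 3 rose and 3 fell with ipatasertib, and 6 fell and none rose with tazemetostat and with the combination. COL1A1 had mean levels of 424, 204, 86.5 and 50.3 CPM under DMSO, ipatasertib, tazemetostat and the combination, and DCN of 98.8, 131, 24.6 and 30.7 CPM. The sum of all 9 was 606 to 626 CPM under DMSO and 401 to 440, 156 to 160 and 122 to 128 CPM with ipatasertib, tazemetostat and the combination. The 5 endothelial markers summed to 0.992 to 1.47, 3.09 to 3.91, 1.44 to 1.93 and 4.83 to 6.73 CPM in the same order. The 6 blood markers, mostly CD68, summed to 219 to 418 CPM over all libraries with MS4A1 at 0, and the 6 neural crest markers to 7.46 to 10.4 CPM with S100B at 0. The part of these markers in the results below was not tested. Beside the marker counts, 25.4%, 25.1% and 36.5% of all genes tested rose with ipatasertib, tazemetostat and the combination, and 28.7%, 20.9% and 34.5% fell. In a pairwise chi-square comparison of replicate counts, pairs with tazemetostat A gave 14.9 to 16.4 per degree of freedom and pairs with combination B 12.4 to 21.2, while the other pairs ranged from 2.41 to 5.80. These libraries stood apart from the others of their groups. Without both of them, 3 calls made below were lost for tazemetostat against DMSO (FOXN1, FOXP3 and KLF2), 5 for the combination against tazemetostat (FOXD2, FOXF1, FOXF2, FOXO3B and SOX15) and 0 in the other comparisons.

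Of the 85 members, 55 had enough counts to be tested: 32 Forkhead, 9 SOX and 14 KLF genes. Calls below are from edgeR's quasi-likelihood test with Benjamini-Hochberg adjustment over all 14874 genes tested, at an adjusted p under 0.05, and changes are log2 fold changes with an approximate standard error (SE). Levels are in CPM scaled with TMM factors, and compare 1 gene between groups, not genes with each other. With ipatasertib against DMSO, 15 members rose, 17 fell and 23 did not pass, which is 58.2% called beside 54.1% of all genes tested (25.4% higher, 28.7% lower). With tazemetostat 26 rose, 13 fell and 16 did not pass, 70.9% beside 46% of all genes (25.1% higher, 20.9% lower). With the combination 32 rose, 16 fell and 7 did not pass, 87.3% beside 71% of all genes (36.5% higher, 34.5% lower). Groups did not overlap for 37, 41 and 50 members in these comparisons, beside 66.1%, 55.7% and 71.9% of all genes.

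At least 2-fold rises were made by 7 members with ipatasertib, 14 with tazemetostat and 21 in the combination, where 4.53%, 6.69% and 13.8% of all genes tested did so. At least 2-fold falls were made by 3, 2 and 4 members, where 2.1%, 1.07% and 5.11% of all genes did so. The median log2 change of the tested members was -0.03 with ipatasertib, 0.17 with tazemetostat and 0.39 in the combination, and that of all genes was -0.01, 0.02 and 0.02. These counts and medians include 9 members that passed the filter on low counts only through libraries of treated groups, where they were high, so that their rises are not independent of the filter: FOXA2, FOXC2, FOXF1, FOXI3, FOXL2, FOXN1, FOXP2, KLF14 and SOX18. FOXC2 and KLF14 passed through libraries of more than 1 treated group. Over the other 46, which the DMSO libraries alone would have let through, 13 rose and 17 fell with ipatasertib, 17 rose and 13 fell with tazemetostat, and 23 rose and 16 fell with the combination, with median log2 changes of -0.08, 0.03 and 0.27. At least 2-fold rises among these 46 numbered 5, 5 and 12, and at least 2-fold falls 3, 2 and 4. FOXS1, one of the 46, passed through the DMSO libraries alone, where it was high, so that its falls are not independent of the filter either.

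The direction of small changes rested on the scaling. Scaling by total counts alone shifted the all-gene median by 0.12, 0.07 and 0.14 for ipatasertib, tazemetostat and the combination, and the members' split became 20 higher and 9 lower, 30 and 10, and 36 and 13. Under that scaling FOXD1, FOXJ2, FOXN2, FOXP3, FOXP4, KLF5, KLF6 and KLF7 were no longer called lower with ipatasertib. No member called here was called in the opposite direction under any alternative that was run. Because the samples are bulk cultures, fewer cells with a transcript and less of it per cell cannot be told apart. The heat map of log2 changes shows 54 of the 55 tested members by family, and the 3 comparisons in it share the DMSO libraries.

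**Figure D1:**
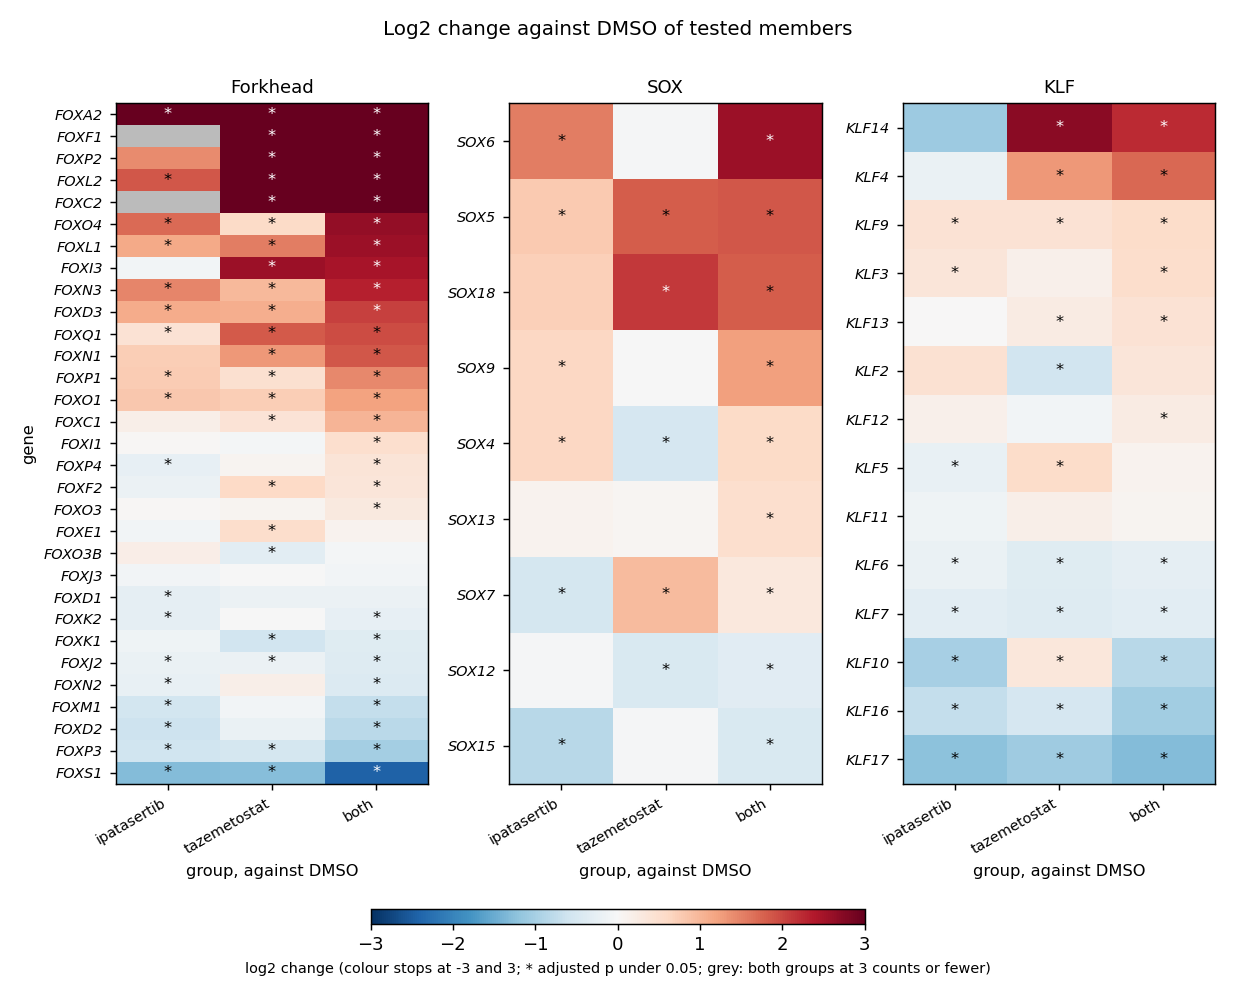
Log2 change against DMSO of 31 of the 32 Forkhead genes and of the 9 SOX and 14 KLF genes tested, ordered by the change with the combination, with red for higher, blue for lower and an asterisk for an adjusted p under 0.05. Fitted values of genes with almost no count under DMSO, at the top of the Forkhead column, depend on the prior count and are limited to the colour at 3.

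Of the 32 Forkhead genes tested, 9 rose and 9 fell with ipatasertib, 17 rose and 6 fell with tazemetostat, and 19 rose and 9 fell with the combination. Among the 25 of them that the DMSO libraries alone would have let through, 7 rose and 9 fell, 10 rose and 6 fell, and 12 rose and 9 fell in the same order, where 25.4%, 25.1% and 36.5% of all genes tested rose and 28.7%, 20.9% and 34.5% fell. FOXO1, FOXO3 and FOXO4 are the FOXO factors that AKT phosphorylates, and FOXO1 and FOXO4 rose in every treated group. FOXO4 stood at 5.32, 4.54 and 4.58 CPM in DMSO libraries A, B and C, at 15.6, 14.9 and 16.8 with ipatasertib, at 6.85, 7.65 and 7.13 with tazemetostat and at 33.6, 23.8 and 32.2 in the combination. No group overlapped another, and the order was DMSO, tazemetostat, ipatasertib, combination. FOXO4 rose 3.25-fold with ipatasertib (log2 change 1.70, SE 0.12, adjusted p = 1.06e-09 in edgeR), by 0.57 (SE 0.13) with tazemetostat and 6.18-fold in the combination (2.63, SE 0.12). The combination was higher than ipatasertib by 0.93 (SE 0.11) and higher than tazemetostat by 2.05 (SE 0.11).

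FOXO1 rose from 29.5, 32.2 and 33.9 CPM under DMSO to 55, 54 and 57.2 after ipatasertib, 49.5, 56.4 and 53.9 with tazemetostat and 74.3, 74.7 and 72.4 in the combination. All treated libraries lay above all DMSO libraries, and those of the combination lay above all others, while the ranges of the single inhibitors overlapped. The log2 changes were 0.80 (SE 0.07), 0.74 (SE 0.07) and 1.21 (SE 0.07). FOXO3 stood at 61.1 ± 2.99 CPM (SD, n = 3) under DMSO, 62.8 ± 1.32 with ipatasertib and 64.2 ± 2.12 with tazemetostat, ranges that overlapped, and rose to 74.9 ± 2.63 with the combination (log2 change 0.30, SE 0.06). FOXO3B, a near-identical copy of FOXO3, fell by 0.31 (SE 0.10) with tazemetostat, and reads of this pair may have been split between them, so both values are uncertain. That call for FOXO3B was lost under scaling by total counts and without DMSO replicate C.

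Of 12 genes that FOXO factors are known to induce, all were tested, and 10 rose with ipatasertib, 9 with tazemetostat and 11 in the combination, with no fall. Their median log2 change was 1.25, 0.43 and 2.09, beside -0.01, 0.02 and 0.02 for all genes. They included IRS2, the insulin receptor adaptor, at 1.42 (SE 0.06), 0.60 (SE 0.06) and 2.22 (SE 0.06), and CCNG2, a cyclin of non-dividing cells, at 1.59 (SE 0.08), 0.59 (SE 0.08) and 1.95 (SE 0.08). SESN1, a stress-response gene, did not pass in any of the 3. This list was known to respond in these samples when it was chosen, and is no independent evidence of a direction. Of 13 genes for the AKT and SGK kinases and 14-3-3 proteins that hold FOXO factors, 11 were tested, and 1 rose and 8 fell with ipatasertib, 2 rose and 1 fell with tazemetostat, and 2 rose and 8 fell with the combination. For this list and the FOXO-induced genes, the shares of all genes tested were 25.4%, 25.1% and 36.5% higher and 28.7%, 20.9% and 34.5% lower. SFN, the 14-3-3 protein of epithelium, had log2 changes of -1.40 (SE 0.08), 0.16 (SE 0.08) and -1.41 (SE 0.08), the middle value not called. SGK1, a kinase that shares FOXO sites with AKT, fell by 0.62 (SE 0.07) with ipatasertib and rose by 0.22 (SE 0.07) with tazemetostat and 0.51 (SE 0.07) in the combination.

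FOXM1 fell with ipatasertib and with the combination. Its level was 361, 353 and 349 CPM under DMSO, 251, 242 and 235 after ipatasertib, 359, 319 and 318 with tazemetostat and 235, 196 and 222 in the combination. The libraries with ipatasertib, alone or combined, all lay below those without it, and tazemetostat overlapped DMSO. The log2 changes were -0.55 (SE 0.07) with ipatasertib, -0.09 (SE 0.07, adjusted p = 0.261 in edgeR) with tazemetostat and -0.70 (SE 0.07) in the combination. Of 14 partners and targets of FOXM1, 10 fell and none rose with ipatasertib, 1 fell and 3 rose with tazemetostat, and 9 fell and none rose with the combination, with median log2 changes of -0.40, 0.09 and -0.52. All genes tested had medians of -0.01, 0.02 and 0.02, and 28.7%, 20.9% and 34.5% of them fell while 25.4%, 25.1% and 36.5% rose. Earlier results of these data were known when this list was chosen, so it is no independent evidence of a direction. MYBL2, which joins FOXM1 at mitotic promoters, fell by 1.37 (SE 0.07) with the combination, and PLK1, a mitotic kinase, fell by 0.72 (SE 0.05) with ipatasertib and 0.20 (SE 0.05) with tazemetostat.

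FOXN3, a repressor linked to the cell cycle checkpoint and to metabolism, and FOXP1, a repressor of the FOXP class, rose in every treated group. FOXN3 measured 6.68, 7.76 and 8.04 CPM under DMSO, 20.9, 20.3 and 21 after ipatasertib, 14.3, 15.7 and 13.7 with tazemetostat and 39.2, 34.9 and 38.7 in the combination. No library of a group reached the range of another, and the log2 changes were 1.48 (SE 0.09), 0.97 (SE 0.09) and 2.33 (SE 0.09). FOXP1 measured 19.9, 21.2 and 20.4 CPM under DMSO, 35.5, 36.3 and 32.8 after ipatasertib, 27.3, 30.6 and 27.3 with tazemetostat and 52.9, 59.9 and 54.6 in the combination. Its groups did not overlap either, with log2 changes of 0.77 (SE 0.07), 0.47 (SE 0.07) and 1.44 (SE 0.07).

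**Figure D2:**
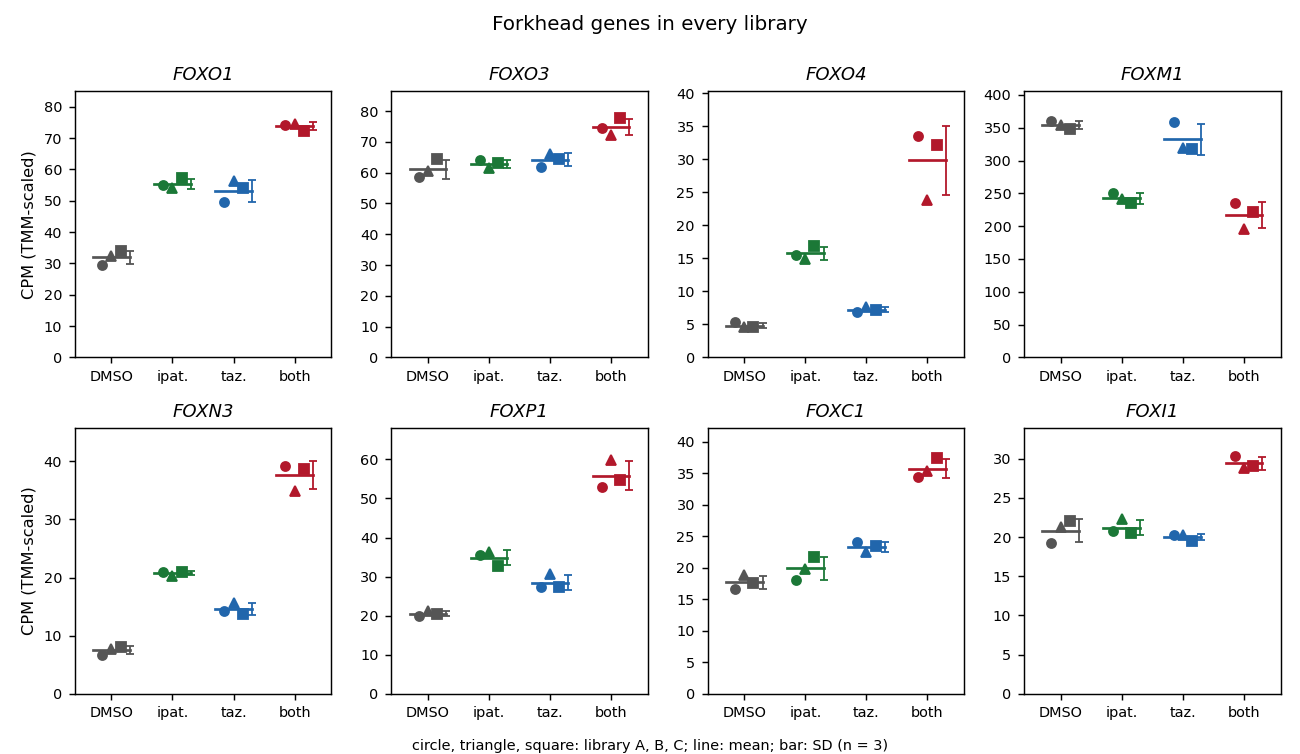
Level of 8 Forkhead genes in CPM scaled with TMM factors in each library, with the mean (line) and SD (bar, n = 3) per group. FOXO4, FOXN3 and FOXP1 have 4 separate groups with the combination highest, FOXM1 is lower in both groups with ipatasertib, and FOXI1 lies at 28.8 to 30.3 CPM with the combination and at 19.2 to 22.3 CPM elsewhere.

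Of the other FOXP genes, FOXP4 stood at 117, 115 and 106 CPM under DMSO, 92.1, 93.7 and 98.9 after ipatasertib, 131, 109 and 118 with tazemetostat and 172, 124 and 147 in the combination. It rose with the combination (log2 change 0.39, SE 0.09), whose libraries all lay above those of DMSO. Its fall of 0.25 (SE 0.09) with ipatasertib did not pass under scaling by total counts (-0.13, adjusted p = 0.247 in edgeR), nor in 6 fits without a single library, namely any of the ipatasertib libraries, DMSO A or B, or combination C, where the log2 change was between -0.26 and -0.19. FOXP3, the regulatory T cell factor, was at 1.29 to 1.34 CPM under DMSO and 0.545 to 0.752 with the combination, a fall of 1.02 (SE 0.24). FOXP2, known from speech and brain development, belongs to the nearly silent members.

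The 9 members that only treated libraries let through the filter are described next. The untested members include some that went the other way at a few counts, such as FOXD4L5 with 2 counts over the DMSO libraries and 0 in both groups with tazemetostat. FOXP2 had 6 counts over the DMSO libraries, and its level was 0.0301 to 0.0703 CPM there, 0.0435 to 0.304 after ipatasertib, 1.02 to 1.59 with tazemetostat and 2.4 to 4.03 in the combination. It was 23.0-fold higher with tazemetostat (log2 change 4.52, SE 0.47) and 58.0-fold higher with the combination (5.86, SE 0.42), and the combination exceeded tazemetostat by 1.33 (SE 0.23). FOXA2, a pioneer factor of endoderm, had no count under DMSO, 1, 3 and 3 counts with ipatasertib, 17, 17 and 24 with tazemetostat and 21, 29 and 31 in the combination. A count of 0 allows up to 3 counts over the DMSO group. Set against 3 counts, FOXA2 was 2.79-fold higher with ipatasertib, 15.2-fold with tazemetostat and 31.4-fold in the combination. The treated counts were taken as exact, so these ratios are not lower bounds. The ipatasertib call of FOXA2 was lost when only the 2 groups compared were fitted.

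FOXF1, a factor of mesenchyme, had no count in any DMSO or ipatasertib library, 28, 25 and 22 counts with tazemetostat and 5, 2 and 14 in the combination. Set against 3 counts over the DMSO group in the same way, it was 19.6-fold higher with tazemetostat and 8.15-fold higher in the combination. Here the combination lay below tazemetostat, by 1.27 (SE 0.44), a call that was lost without tazemetostat A or B or combination A or B, between -1.23 and -0.88, without both tazemetostat A and combination B (-0.75, adjusted p = 0.184 in edgeR), and with DESeq2 (-1.35, adjusted p = 0.0847). FOXC2, also a factor of mesenchyme, had 0, 0 and 2 counts under DMSO, none with ipatasertib, 12, 6 and 19 with tazemetostat and 9, 7 and 21 in the combination. The ratio to DMSO was 14.5 (exact 95% counting interval 3.74 to 124) with tazemetostat and 21.5 (5.55 to 184) in the combination. The intervals cover counting error only, and the ratios set against 3 counts leave out the counting error of the treated group. When only the 2 groups compared were fitted, the calls of FOXC2 against DMSO were lost with either, and that of FOXF1 with the combination.

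FOXL2, the ovarian granulosa cell factor, stepped through the groups, with 0.0469 to 0.163 CPM under DMSO, 0.301 to 0.456 after ipatasertib, 0.863 to 1.07 with tazemetostat and 1.86 to 2.29 in the combination. The log2 changes were 1.85 (SE 0.46), 3.13 (SE 0.36) and 4.22 (SE 0.33). FOXI3, a factor of ectodermal placodes, was at 0.15 to 0.229 CPM under DMSO and 0.0761 to 0.217 after ipatasertib, and at 0.977 to 1.23 with tazemetostat and 0.844 to 1.36 in the combination. Its rise was 2.57 (SE 0.33) and 2.48 (SE 0.35) with tazemetostat and the combination, and these last groups overlapped. SOX18, a factor of vessel and lymphatic endothelium, rose by 2.12 (SE 0.42) and 1.82 (SE 0.46) in the same groups, from 0.0981 to 0.241 CPM under DMSO to 0.522 to 0.815 and 0.381 to 0.752 CPM. KLF14, an imprinted gene, rose by 2.71 (SE 0.57) and 2.24 (SE 0.65) from 0.0301 to 0.131 CPM, and both calls were lost when only the groups compared were fitted. FOXN1, the factor of thymic and skin epithelium, rose by 1.86 (SE 0.50) with the combination, while its rise of 1.29 (SE 0.50) with tazemetostat was lost with DESeq2 (adjusted p = 0.0670) and in 8 fits without a single library (any DMSO library, ipatasertib B or C, tazemetostat A or C, or combination C), from 0.91 to 1.56. It was also lost without both tazemetostat A and combination B (0.94, adjusted p = 0.125 in edgeR).

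**Figure D3:**
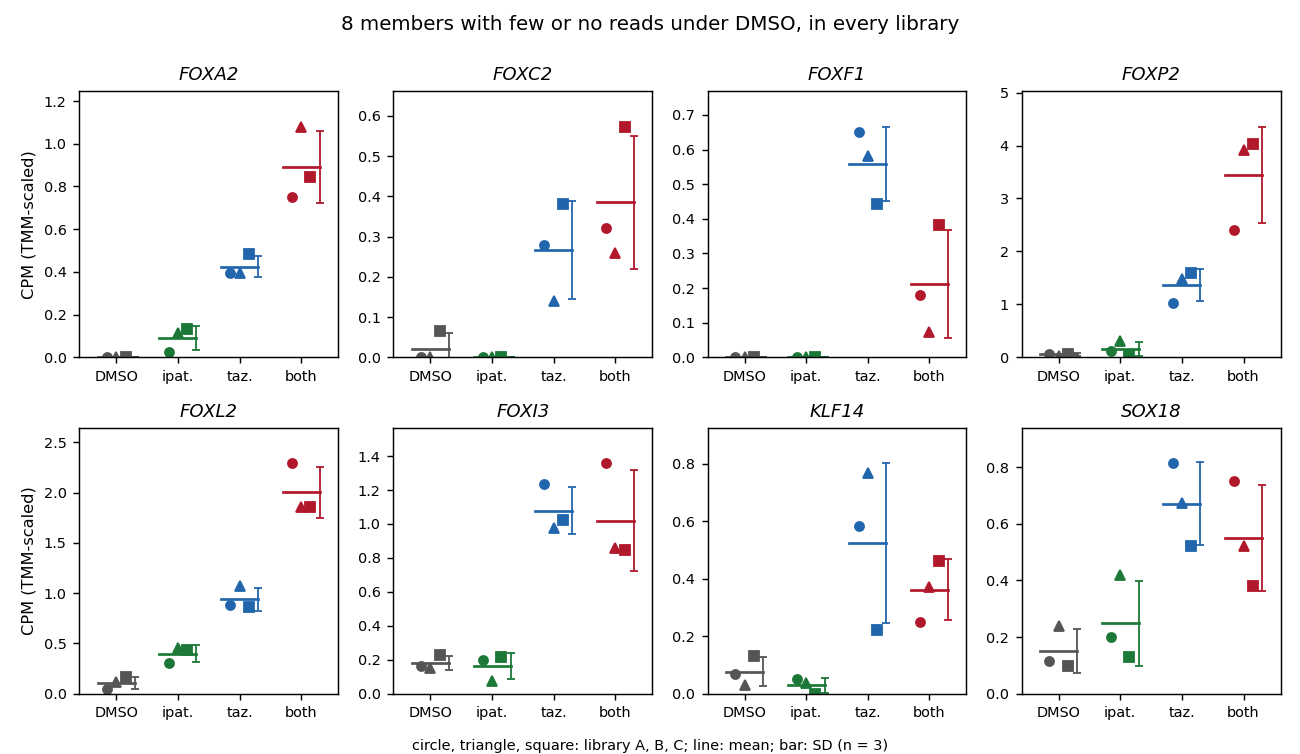
Level of 8 of the members with few or no reads under DMSO in CPM scaled with TMM factors in each library, with the mean (line) and SD (bar, n = 3) per group. FOXA2, FOXP2 and FOXL2 are highest with the combination, FOXF1 is highest with tazemetostat, and the tazemetostat and combination libraries of FOXC2, FOXI3, KLF14 and SOX18 overlap.

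Among the members that the DMSO libraries did express, the class of FOXC, FOXL, FOXQ and FOXS genes held further large changes. FOXQ1, a factor linked to epithelial-mesenchymal transition, was at 5.44, 4.96 and 5.56 CPM under DMSO, 7.4, 7.22 and 6.87 after ipatasertib, 20.8, 18.4 and 18.3 with tazemetostat and 23.2, 18.1 and 21.1 in the combination. The last pair of groups overlapped and lay far above the others, and the log2 difference of the combination from tazemetostat was 0.12 (SE 0.09, adjusted p = 0.259 in edgeR). Its rise with ipatasertib was 0.43 (SE 0.11). FOXL1, a factor of gut mesenchyme, rose from 1.9, 2.17 and 1.41 CPM under DMSO to 3.86, 3.99 and 4.39 after ipatasertib, 5.92, 4.98 and 5.16 with tazemetostat and 11.7, 10.3 and 10.5 in the combination. Its 4 groups did not overlap, and the log2 changes were 1.14 (SE 0.15), 1.54 (SE 0.14) and 2.56 (SE 0.13).

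FOXC1 was at 16.7, 18.8 and 17.5 CPM under DMSO, 18.1, 19.8 and 21.7 after ipatasertib, 24.1, 22.5 and 23.4 with tazemetostat and 34.4, 35.3 and 37.3 in the combination. Ipatasertib overlapped DMSO (log2 change 0.16, SE 0.08, adjusted p = 0.0902 in edgeR), and FOXC1 rose by 0.40 (SE 0.08) with tazemetostat and 1.02 (SE 0.08) in the combination. FOXD3, a neural crest factor, was at 0.391 to 0.49 CPM under DMSO, 0.722 to 1.22 after ipatasertib, 0.862 to 1.09 with tazemetostat and 1.82 to 2.01 in the combination, changes of 1.12 (SE 0.26), 1.09 (SE 0.25) and 2.05 (SE 0.24). FOXS1 went the other way, from 0.602 to 0.719 CPM under DMSO to 0.19 to 0.391, 0.209 to 0.361 and 0.0545 to 0.251 CPM. The fitted log2 changes were -1.29 (SE 0.38), -1.28 (SE 0.35) and -2.43 (SE 0.45), in a gene that only the DMSO libraries let through the filter. FOXI1, the factor of ionocytes, was at 19.2 to 22.3 CPM in all libraries of DMSO, ipatasertib and tazemetostat, and at 30.3, 28.8 and 29.1 CPM with the combination (log2 change 0.50, SE 0.07). FOXF2 and FOXE1, named after their values were seen, rose by 0.59 (SE 0.08) and 0.53 (SE 0.07) with tazemetostat.

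Further Forkhead genes with smaller changes are named to complete the families. FOXD2 fell by 0.62 (SE 0.15) with ipatasertib and 0.81 (SE 0.16) with the combination, and FOXK1 and FOXK2, which act on autophagy and glycolysis genes, fell by 0.37 (SE 0.12) and 0.25 (SE 0.06) with the combination, calls lost under scaling by total counts. The combination call of FOXK1 was also lost without DMSO replicate A, and its libraries overlapped those of DMSO, at 45.4 to 67.4 CPM and 60.2 to 84.1 CPM. FOXK1 also fell by 0.58 (SE 0.12) with tazemetostat and FOXK2 by 0.27 (SE 0.06) with ipatasertib. Both of these calls were kept under every alternative that was run. FOXJ2 and FOXN2 fell by 0.40 (SE 0.07) and 0.41 (SE 0.08) with the combination. FOXD1 was called only with ipatasertib (-0.27, SE 0.09), a call also lost without DMSO replicate C or ipatasertib replicate B, and FOXJ3 passed in none of the 3 comparisons against DMSO, with log2 changes from -0.08 to -0.02.

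For 62 of the 85 members a sequence of the 250 bases before the start of the gene was found in RefSeq (GRCh38.p14, to which the coordinates below belong). It was read to see whether members that moved together shared CG dinucleotides, which mark the CpG islands where Polycomb complexes are known to gather, or a binding motif. The members held a median of 19.5 CG in these 250 bases, and all 13774 genes of the files with a sequence held a median of 17. Members that rose with tazemetostat had a median of 26 CG (19 genes), those that fell 28 (11 genes) and those that did not pass 17 (11 genes). With ipatasertib these medians were 25 (11 genes), 21 (11 genes) and 26 (19 genes). With the combination they were 24.5 (24 genes), 35 (10 genes) and 18 (7 genes), and untested members had 13 (21 genes). This is a description with no test. The sequences of the members with the clearest patterns follow in 5′ to 3′ order, with CG in capitals. FOXO4 (chrX:71095601-71095850, plus strand, 21 CG), FOXN3 (chr14:89619166-89619415, minus strand, 33 CG) and SOX6 (chr11:16738478-16738727, minus strand, 17 CG) were highest with the combination. FOXQ1 (chr6:1311848-1312097, plus strand, 29 CG) and FOXI3 (chr2:88452694-88452943, minus strand, 31 CG) were high in both groups with tazemetostat, as was FOXP2 (chr7:114414565-114414814, plus strand), whose window held 0 CG.
FOXO4: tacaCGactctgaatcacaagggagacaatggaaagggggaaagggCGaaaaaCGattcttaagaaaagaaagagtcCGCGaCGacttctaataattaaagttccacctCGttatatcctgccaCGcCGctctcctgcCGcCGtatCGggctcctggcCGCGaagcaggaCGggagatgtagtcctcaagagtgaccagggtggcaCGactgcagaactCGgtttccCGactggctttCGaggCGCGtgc
FOXN3: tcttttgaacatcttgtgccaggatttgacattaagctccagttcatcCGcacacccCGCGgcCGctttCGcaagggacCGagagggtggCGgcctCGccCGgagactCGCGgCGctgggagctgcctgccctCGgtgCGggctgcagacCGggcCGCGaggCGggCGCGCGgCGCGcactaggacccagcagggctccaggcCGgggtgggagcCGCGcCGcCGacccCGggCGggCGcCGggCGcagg
SOX6: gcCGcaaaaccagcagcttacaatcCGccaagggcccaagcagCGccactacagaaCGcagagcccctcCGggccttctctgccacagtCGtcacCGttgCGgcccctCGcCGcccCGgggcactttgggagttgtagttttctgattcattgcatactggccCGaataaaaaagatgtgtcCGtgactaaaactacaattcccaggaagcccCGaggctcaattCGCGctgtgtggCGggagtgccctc
FOXQ1: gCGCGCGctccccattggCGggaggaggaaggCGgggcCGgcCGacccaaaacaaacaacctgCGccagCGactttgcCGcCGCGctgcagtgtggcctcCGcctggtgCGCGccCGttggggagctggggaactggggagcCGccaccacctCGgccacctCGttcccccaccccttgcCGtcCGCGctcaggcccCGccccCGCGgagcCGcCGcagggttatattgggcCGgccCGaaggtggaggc
FOXI3: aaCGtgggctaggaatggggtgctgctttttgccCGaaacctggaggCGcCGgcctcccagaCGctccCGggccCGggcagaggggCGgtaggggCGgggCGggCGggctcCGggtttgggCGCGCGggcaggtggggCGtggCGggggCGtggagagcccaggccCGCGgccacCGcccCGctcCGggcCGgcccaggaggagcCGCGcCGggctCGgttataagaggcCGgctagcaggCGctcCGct
FOXP2: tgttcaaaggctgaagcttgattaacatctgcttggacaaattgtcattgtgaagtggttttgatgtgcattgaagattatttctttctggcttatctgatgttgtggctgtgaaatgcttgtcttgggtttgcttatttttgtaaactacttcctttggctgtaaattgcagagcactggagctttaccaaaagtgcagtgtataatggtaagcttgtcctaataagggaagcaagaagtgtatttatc

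Both strands were searched for the FOXO motif GTAAACA, the KLF motif CCACACCC and the SOX motif AACAAAG, none of which contains another. GTAAACA was in 1 of 62 members and in 2.28% of all genes with a sequence, CCACACCC in 0 of 62 and 3.08%, and AACAAAG in 2 of 62 and 3.48%. The AACAAAG matches began at -126 in FOXD3 and at -139 in KLF11, counted from the start of the gene. The GTAAACA match was in SOX12 (chr20:325302-325551, plus strand), which fell with tazemetostat, and begins at -98. It is in capitals, on the reverse strand, in the sequence that follows.
SOX12: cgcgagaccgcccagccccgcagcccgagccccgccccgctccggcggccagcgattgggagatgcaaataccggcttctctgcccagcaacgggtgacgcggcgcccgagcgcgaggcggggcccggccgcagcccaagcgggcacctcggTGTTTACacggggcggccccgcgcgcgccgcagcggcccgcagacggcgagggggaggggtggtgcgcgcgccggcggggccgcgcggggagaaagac

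Of the 9 SOX genes tested, 4 rose and 2 fell with ipatasertib, 3 rose and 2 fell with tazemetostat, and 7 rose and 2 fell with the combination. Among the 8 that the DMSO libraries alone would have let through, 4 rose and 2 fell, 2 rose and 2 fell, and 6 rose and 2 fell. The shares of all genes tested were 25.4%, 25.1% and 36.5% higher and 28.7%, 20.9% and 34.5% lower in the same order. SOX9 and SOX4, the progenitor factors, both rose with ipatasertib. SOX9 was at 155, 162 and 152 CPM under DMSO, 241, 243 and 242 after ipatasertib, 150, 153 and 161 with tazemetostat and 374, 376 and 358 in the combination. Tazemetostat overlapped DMSO, and the combination lay far above ipatasertib. The log2 changes were 0.63 (SE 0.05, adjusted p = 8.96e-09 in edgeR) with ipatasertib, -0.02 (SE 0.05, adjusted p = 0.812) with tazemetostat and 1.24 (SE 0.05) in the combination. The tazemetostat value of SOX9 was 0.05 under scaling by total counts.

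SOX4 was at 190, 188 and 185 CPM under DMSO, 281, 278 and 300 after ipatasertib, 125, 132 and 142 with tazemetostat and 291, 264 and 280 in the combination. The libraries with ipatasertib, alone or combined, overlapped each other and lay above DMSO, and those with tazemetostat lay below it. SOX4 rose by 0.61 (SE 0.06) with ipatasertib, fell by 0.49 (SE 0.06) with tazemetostat and rose by 0.57 (SE 0.06) in the combination, where it exceeded tazemetostat by 1.06 (SE 0.06) and its log2 difference from ipatasertib was -0.04 (SE 0.06, adjusted p = 0.628 in edgeR). SOX12, of the same class as SOX4, fell by 0.46 (SE 0.09) with tazemetostat and 0.34 (SE 0.09) in the combination, the latter lost under scaling by total counts.

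The SOXD genes, which lack a known activation domain of their own and modulate SOX9 in cartilage, all rose with the combination. SOX6 was at 1.29, 1.41 and 1.8 CPM under DMSO, 4.84, 3.31 and 4.61 after ipatasertib, 1.33, 1.93 and 1.08 with tazemetostat and 9.24, 7.55 and 9.5 in the combination. Tazemetostat overlapped DMSO (log2 change -0.05, SE 0.23, and 0.02 under scaling by total counts), ipatasertib lay above both (1.53, SE 0.20), and the combination lay highest (2.57, SE 0.19, 5.92-fold). SOX5 was at 0.938, 1.08 and 1.14 CPM under DMSO, 1.78, 1.52 and 2.17 after ipatasertib, 3.05, 4 and 4 with tazemetostat and 3.69, 3.76 and 3.92 in the combination. It rose by 0.79 (SE 0.20), 1.82 (SE 0.17) and 1.86 (SE 0.17), and the combination overlapped tazemetostat. SOX13 rose by 0.51 (SE 0.10) with the combination and had log2 changes of 0.10 (SE 0.10) and 0.06 (SE 0.10) with ipatasertib and tazemetostat.

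**Figure D4:**
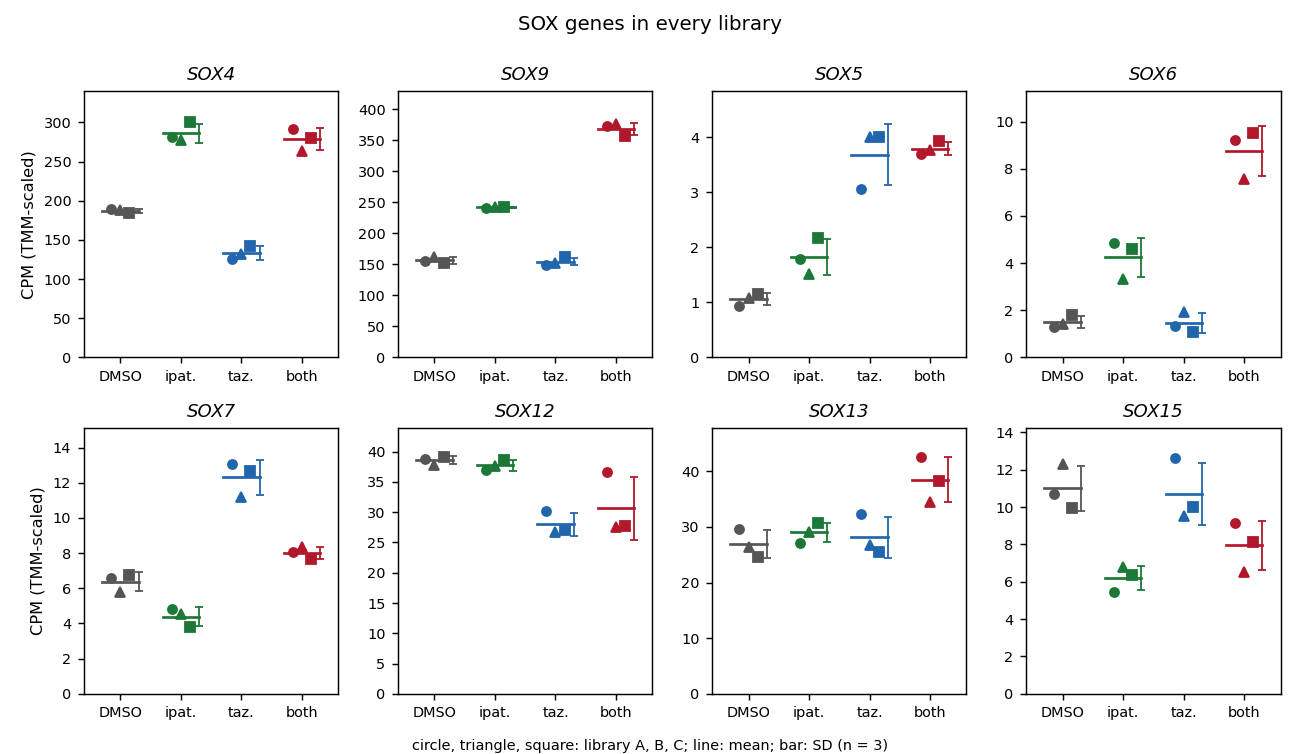
Level of 8 SOX genes in CPM scaled with TMM factors in each library, with the mean (line) and SD (bar, n = 3) per group. SOX9 and SOX6 are near the DMSO level with tazemetostat and highest in the combination, SOX5 is high in both groups with tazemetostat, and SOX4 is high in both groups with ipatasertib.

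SOX7, an endothelial factor of the SOXF class, fell by 0.53 (SE 0.12) with ipatasertib and rose by 0.95 (SE 0.10) with tazemetostat, at 5.77 to 6.77 CPM under DMSO, 3.78 to 4.82 with ipatasertib and 11.2 to 13 with tazemetostat. With the combination it was at 7.65 to 8.33 CPM, between the single inhibitors, and its rise over DMSO (0.33, SE 0.11) was lost without DMSO replicate B. SOX15 was at 9.97 to 12.3 CPM under DMSO and 5.47 to 6.77 after ipatasertib, a fall of 0.84 (SE 0.14), and fell by 0.47 (SE 0.13) with the combination. Low counts left the other SOX genes untested. SOX2, the pluripotency factor, had no count under DMSO or ipatasertib, 0, 1 and 1 counts with tazemetostat and 5, 4 and 2 in the combination. Set against 3 counts over the DMSO group, with the treated counts taken as exact, the combination was 4.27-fold higher. SOX10, a factor of neural crest and of some basal-like tumours, had 3, 2 and 2 counts under DMSO, 1, 2 and 3 after ipatasertib, none with tazemetostat and 0, 0 and 1 in the combination. SOX11 had 2, 13 and 12 counts with tazemetostat and 5, 1 and 3 in the combination and none elsewhere. In the same way, set against 3 counts over the DMSO group, these were 7.06-fold and 3.49-fold higher.

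Of the 14 KLF genes tested, 2 rose and 6 fell with ipatasertib, and 6 rose and 5 fell with tazemetostat and likewise in the combination. Among the 13 that the DMSO libraries alone would have let through, 2 rose and 6 fell, 5 rose and 5 fell, and 5 rose and 5 fell. Beside them, 25.4%, 25.1% and 36.5% of all genes tested rose and 28.7%, 20.9% and 34.5% fell in the same order. KLF4, a factor of epithelial differentiation, was at 1.38, 1.35 and 1.28 CPM under DMSO, 1.23, 1.29 and 0.956 after ipatasertib, 3.45, 3.21 and 3.27 with tazemetostat and 4.62, 4.2 and 4.41 in the combination. Ipatasertib overlapped DMSO (log2 change -0.19, SE 0.18), and KLF4 rose by 1.30 (SE 0.14) with tazemetostat and 1.72 (SE 0.14) in the combination, which did not overlap each other. KLF5 was at 76.2, 82.4 and 79.2 CPM under DMSO, 68, 68 and 66.3 after ipatasertib, 107, 119 and 122 with tazemetostat and 80.2, 89.1 and 84.7 in the combination. It fell by 0.23 (SE 0.06) with ipatasertib, rose by 0.55 (SE 0.06) with tazemetostat and overlapped DMSO in the combination (0.09, SE 0.06). The ipatasertib call of KLF5 was lost under scaling by total counts (-0.12).

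KLF10, a gene induced early by TGF-beta, had opposite changes with the inhibitors. Its level was 41.9, 41.3 and 40.2 CPM under DMSO, 21, 20.6 and 19.7 after ipatasertib, 48.2, 54.6 and 52.8 with tazemetostat and 20.1, 26.6 and 23.2 in the combination. The groups with ipatasertib overlapped each other and lay below DMSO, and tazemetostat lay above it. KLF10 fell by 1.01 (SE 0.08) with ipatasertib, rose by 0.33 (SE 0.08) with tazemetostat and fell by 0.82 (SE 0.08) in the combination. KLF17, known from the early embryo, fell by 1.22 (SE 0.28), 1.06 (SE 0.25) and 1.30 (SE 0.28), from 0.932 to 1.41 CPM under DMSO to 0.452 to 0.608, 0.466 to 0.683 and 0.322 to 0.595 CPM. KLF16, named after its values were seen, fell by 0.71 (SE 0.11), 0.50 (SE 0.10) and 1.04 (SE 0.11).

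KLF9, a gene induced by glucocorticoids, was at 25.3, 25.3 and 26.2 CPM under DMSO, 34.4, 34.3 and 34.3 after ipatasertib, 31.7, 36.8 and 34.6 with tazemetostat and 36.4, 37.7 and 38.9 in the combination. All treated libraries lay above DMSO, with rises of 0.42 (SE 0.07), 0.43 (SE 0.07) and 0.56 (SE 0.07). KLF6 was at 148, 142 and 137 CPM under DMSO, 128, 130 and 115 after ipatasertib, 111, 111 and 112 with tazemetostat and 114, 120 and 118 in the combination. It fell by 0.20 (SE 0.06), 0.36 (SE 0.06) and 0.28 (SE 0.06), and the ipatasertib call was lost under scaling by total counts (-0.08), without DMSO replicate A (-0.15) and without ipatasertib replicate C (-0.12). KLF7 fell by 0.31 (SE 0.09), 0.38 (SE 0.08) and 0.33 (SE 0.09), and its ipatasertib call was also lost under scaling by total counts. KLF3 rose by 0.37 (SE 0.07) with ipatasertib and 0.52 (SE 0.07) with the combination. KLF13 rose by 0.44 (SE 0.08) and KLF12 by 0.24 (SE 0.08) with the combination, the latter lost without DMSO replicate B, and KLF11 passed in none of the comparisons against DMSO.

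KLF2, the target of the MEK5 and ERK5 kinases and of MEF2 factors, and a gene that FOXO1 is known to induce in lymphocytes, was at 1.69, 1.14 and 1.47 CPM under DMSO, 2.28, 1.98 and 1.61 after ipatasertib, 0.862, 1.09 and 0.964 with tazemetostat and 2.04, 1.82 and 1.77 in the combination. The combination lay above tazemetostat in every library, by 0.94 (SE 0.20). The fall with tazemetostat (-0.57, SE 0.20, adjusted p = 0.0264 in edgeR) was lost without DMSO A, DMSO C, tazemetostat A or tazemetostat C, with values from -0.59 to -0.44, and without both tazemetostat A and combination B (-0.52, adjusted p = 0.0529), and the value with ipatasertib was 0.46 (SE 0.19, adjusted p = 0.0504). Of 7 genes of that kinase path, 3 rose and none fell with ipatasertib, 2 rose and 2 fell with tazemetostat, and 3 rose and 3 fell with the combination, where 25.4%, 25.1% and 36.5% of all genes tested rose and 28.7%, 20.9% and 34.5% fell. MEF2C rose by 0.72 (SE 0.09), 0.41 (SE 0.09) and 1.03 (SE 0.09), while MEF2D fell by 0.50 (SE 0.08) with tazemetostat.

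**Figure D5:**
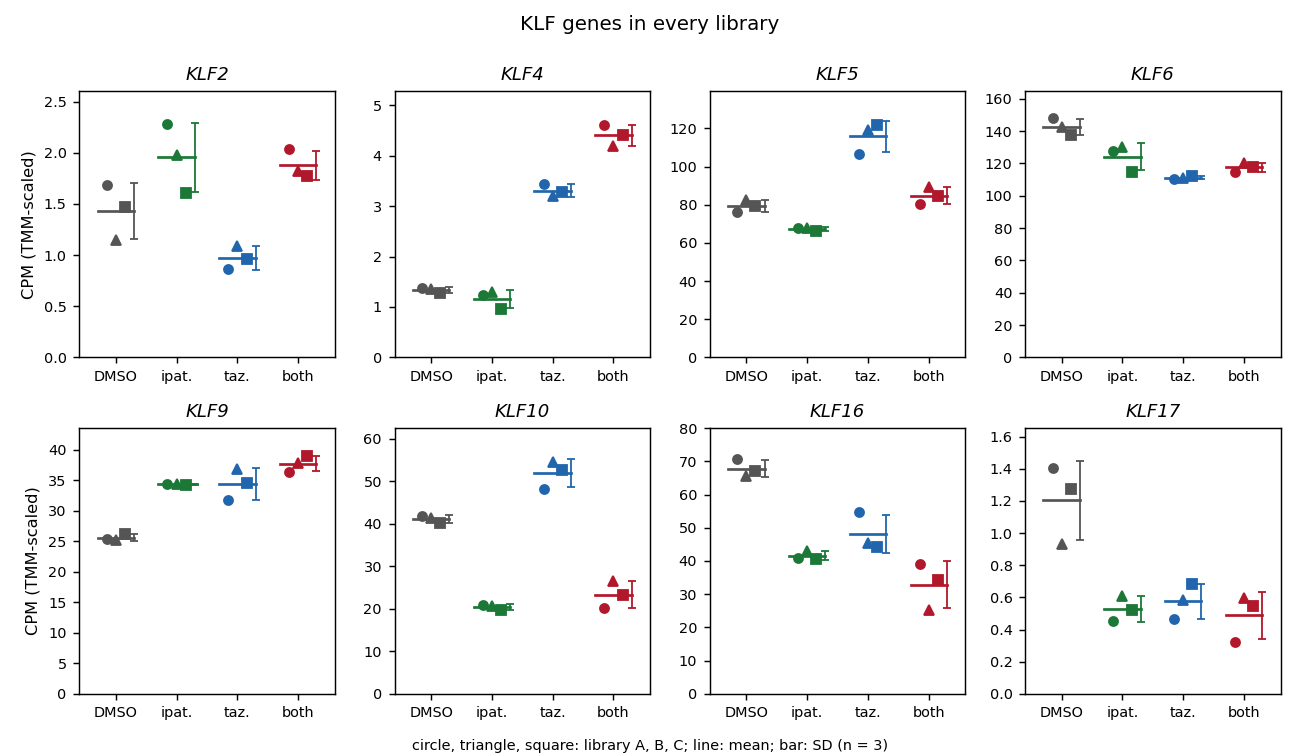
Level of 8 KLF genes in CPM scaled with TMM factors in each library, with the mean (line) and SD (bar, n = 3) per group. KLF10 is at 19.7 to 26.6 CPM in the groups with ipatasertib and at 40.2 to 54.6 CPM in the others, and KLF4 is higher in both groups with tazemetostat.

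Between the combination and each inhibitor alone, members were compared in the same fit. Against ipatasertib, 29 members were higher, 4 lower and 22 did not pass, 60% called beside 39.1% of all genes tested (21.8% higher, 17.3% lower). Against tazemetostat, 23 were higher, 13 lower and 19 did not pass, 65.5% beside 60.6% (29.8% higher, 30.8% lower). Groups did not overlap for 37 and 34 members, beside 46.8% and 59.3% of all genes. Among the 46 members the DMSO libraries alone would have let through, 22 were higher and 4 lower than with ipatasertib, and 20 higher and 12 lower than with tazemetostat. Without both tazemetostat A and combination B, 26 of the tested members were higher than with tazemetostat and 9 lower. The members lower than with ipatasertib numbered 2 without ipatasertib replicate B and 7 without tazemetostat replicate A or combination replicate A.

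The interaction asks whether the log2 change with both inhibitors differs from the sum of the changes with each. It was called for 6 of the 55 members, all higher, 10.9% beside 3.62% of all genes tested (1.87% higher, 1.75% lower), and 49 did not pass. At an unadjusted p under 0.05 in edgeR, 15 members were higher and 8 lower. The share of all genes at that threshold was not computed, so these counts cannot be set against the 3.62%. DESeq2 called 7 members higher and 4 lower, and 932 of all genes in either direction. SOX9 had an excess of 0.63 (SE 0.07, adjusted p = 6.06e-05 in edgeR), FOXI1 of 0.53 (SE 0.10, adjusted p = 0.00507) and SOX4 of 0.45 (SE 0.08, adjusted p = 0.0044), and these 3 were called in every fit that left out a single library. SOX6 (1.08, SE 0.28, adjusted p = 0.0354), FOXP4 (0.56, SE 0.13, adjusted p = 0.019) and FOXC1 (0.45, SE 0.11, adjusted p = 0.0245) were each lost in 7 such fits. These were the fits without DMSO A, B or C, ipatasertib B or C, tazemetostat C or combination C for SOX6 (0.91 to 1.20). They were those without DMSO A or B, ipatasertib A or B, tazemetostat B or C or combination C for FOXP4 (0.50 to 0.57), and those without DMSO B or C, ipatasertib A or B, tazemetostat B or C or combination C for FOXC1 (0.40 to 0.47). The number of members called moved with the libraries that stood apart, from 6 higher and 0 lower with all 12 libraries to 14 and 4 without combination B, and to 17 and 7 without both tazemetostat A and combination B. Without DMSO B, ipatasertib B, tazemetostat C or combination C it was 3 higher, and without tazemetostat A 4 were lower. FOXO1, FOXO4, FOXN3 and FOXL1, which were highest with the combination, had interaction values of -0.33 (SE 0.09), 0.35 (SE 0.17), -0.11 (SE 0.12) and -0.13 (SE 0.19), with adjusted p from 0.0566 to 0.774 in edgeR.

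The 30 members that were not tested had at most 13 counts in any library. Of these, 8 had no count in any of the 12 libraries: FOXD4L2, FOXD4L4, FOXI2, FOXR2, SOX1, SOX3, SOX8 and SOX17. FOXA3, another endoderm factor, had 1 count over the DMSO libraries and 27 over those with tazemetostat, a ratio of 21.2 (exact 95% counting interval 3.49 to 867). The FOXD4 copies are near-identical, and reads of that group may have been split between them. SOX21 had no count under DMSO or ipatasertib, 0, 5 and 4 with tazemetostat and 2, 1 and 3 in the combination.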

How the data were processed

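Polyadenylated RNA of SUM149PT cells was sequenced in 12 libraries, per the labels. Per the submitters' processing notes the authors used STAR, SAMtools, HTSeq and DESeq2 with the build hg19; their versions, the annotation and whether strand was used are not given in the sources, so overlapping and antisense genes (SOX2 lies within another transcript) cannot be told apart. The deposited values are raw counts per gene and library, used as deposited. The 5 lines that name no gene took up 29.8% to 38.6% of a library's reads and entered neither library sizes nor tests. The series' table of normalised values was not used. Of these lines, that for reads overlapping no annotated gene alone made up 19.7%, 24.6%, 18.4% and 23.8% on average under DMSO, ipatasertib, tazemetostat and the combination.

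The counts were fitted with edgeR 4.0.16 under R 4.3.3. Genes below filterByExpr's minimum count of 10 (0.283 CPM in 3 libraries) were removed, which left 14874, and TMM factors set the library sizes. A single quasi-likelihood fit over all 12 libraries had 1 coefficient per group (common biological coefficient of variation 0.0645). The 6 comparisons were each treatment against DMSO, the combination against each inhibitor, and the interaction, with Benjamini-Hochberg adjustment over all genes tested at 0.05. The SE, back-computed from the change and its F statistic, is approximate. The steps were tested on simulated data. Alternatives were DESeq2 size factors in edgeR, total counts alone, DESeq2 1.42.0, no filter, only the groups compared, each library left out, tazemetostat A and combination B left out, and a replicate block.

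The members, lists and alternatives were chosen with earlier results of these data known. Values are given for a set of 15 members, for up to 15 members per comparison against DMSO past the threshold with a log2 change of at least 1 in size, largest first, and for up to 10 past the threshold of the interaction. Other members are named to complete a family or were chosen after their values were seen. 1 tested member is in the counts but is not reported here. Upstream sequences are from RefSeq. FOXA2, FOXC2, FOXD4L2, FOXE3, FOXF1, FOXH1, FOXJ1, FOXL1, FOXM1, FOXN2, FOXS1, KLF3, KLF10, SOX7, SOX8, SOX9, SOX10, SOX11, SOX14, SOX15, SOX17 and SOX18 had no entry used here.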

Additional observations from a re-analysis of the deposited data

Results flagged for a closer look

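For 6 members the interaction term of the edgeR quasi-likelihood fit was called. It asks whether the effect of either inhibitor differed with and without the other. The calls of SOX6, FOXP4 and FOXC1 were each lost in several fits that left out a single library. Those of SOX9, FOXI1 and SOX4 were kept in all such fits. The excess of the combination over the sum of the single log2 changes was 1.08 for SOX6, 0.63 for SOX9, 0.56 for FOXP4, 0.53 for FOXI1, 0.45 for SOX4 and 0.45 for FOXC1. In CPM means, SOX6 went from 1.5 under DMSO to 4.25 with ipatasertib, and from 1.45 with tazemetostat to 8.77 with the combination. SOX9 went from 156 to 242 and from 155 to 369, and SOX4 from 187 to 286 and from 133 to 278. FOXI1 went from 20.8 to 21.2 and from 20.0 to 29.4 CPM, FOXC1 from 17.7 to 19.9 and from 23.3 to 35.7, and FOXP4 from 113 to 94.9 and from 119 to 148.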

How the results depend on the processing

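Of 18 counts of calls, 307 of 339 values under alternatives lay within 1.5 times the value given above. With total counts alone, members lower with ipatasertib numbered 9. Members lower with the combination than with ipatasertib numbered 7 with DESeq2 size factors in edgeR, 8 without a filter, and 2 to 7 with a single library left out. For the interaction, members higher numbered 17 without tazemetostat A and combination B and 3 to 14 with a single library left out. Members lower in the interaction numbered 4 with total counts alone, 4 with DESeq2, 3 without a filter, 7 without tazemetostat A and combination B, and 0 to 4 with a single library left out. All genes called for the interaction numbered 539, against 932 with DESeq2, 905 without a filter, 4766 without tazemetostat A and combination B, and 243 to 2443 with a single library left out. The causes were not tested.

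A sign changed for 16 values, none of them called. Under total counts alone the log2 change with tazemetostat was 0.0532 for SOX9, 0.0244 for SOX6 and 0.0153 for FOXI1, and FOXI3 was 0.0237 with ipatasertib. Without tazemetostat A and combination B, the interaction was 0.0824 for FOXM1, 0.00368 for FOXL1, 0.21 for FOXI3 and 0.40 for FOXN1, FOXI3 and SOX5 were 0.15 and -0.0262 in the combination against tazemetostat, and FOXP4 was -0.0132 with tazemetostat. FOXI3's interaction was 0.00426 with DESeq2 and 0.0111 with the replicate block. With a single library left out, interaction values ran from -0.11 to 0.0208 for FOXM1, -0.74 to 0.58 for FOXS1, -0.24 to 0.0108 for FOXL1, -0.41 to 0.63 for FOXP2, -0.28 to 0.25 for FOXI3 and -0.73 to 0.34 for FOXN1. Likewise, values against ipatasertib ran from -0.21 to 0.0386 for KLF2 and -0.23 to 0.11 for KLF17, and values against tazemetostat from -0.32 to 0.0769 for FOXI3 and -0.0497 to 0.12 for SOX5. Values with tazemetostat ran from -0.33 to 0.11 for SOX6 and -0.0297 to 0.12 for FOXP4, and with ipatasertib from -0.32 to 0.21 for FOXI3 and -0.00835 to 0.0715 for FOXI1.

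The labels give every group the letters A, B and C. Deviations from the group means correlated over 0.1 in 4 of 18 same-letter pairs (-0.14 to 0.45). The highest correlations, 0.45 for A and 0.35 for B, were between tazemetostat and the combination, where C gave -0.098. As 6 of 12 libraries were closest to their own letter, the letters were not taken as pairs. With the letter as a replicate block, 2 members were lower in the interaction and 753 genes were called for it. All members called in the combination against tazemetostat were kept with that block.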

Other observations

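Relatives of these families outside the symbols chosen were also measured. Of the 9 SP genes, zinc finger relatives of the KLF factors, 7 were tested. None rose and 2 fell with ipatasertib, 2 rose and none fell with tazemetostat, and 2 rose and 1 fell with the combination. In the same order, 25.4%, 25.1% and 36.5% of all genes tested rose and 28.7%, 20.9% and 34.5% fell. SP8 was at 19.3 CPM under DMSO, 14.7 after ipatasertib, 38.3 after tazemetostat and 29.0 in the combination, log2 changes of -0.39 (SE 0.09), 0.99 (SE 0.08) and 0.59 (SE 0.09), and SP6 fell by 0.81 (SE 0.14) with ipatasertib. SP1 passed in none of these, with values from -0.07 to 0.05.

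The 4 TCF and LEF genes carry an HMG box like the SOX factors and act in WNT signalling. With ipatasertib 2 rose and 1 fell, with tazemetostat 3 rose and 1 fell, and with the combination 4 rose. The shares of all genes tested were 25.4%, 25.1% and 36.5% higher and 28.7%, 20.9% and 34.5% lower. TCF7L1 rose by 1.21 (SE 0.17) with tazemetostat and 1.37 (SE 0.18) with the combination. TCF7L2 rose by 0.70 (SE 0.06) with ipatasertib, fell by 0.22 (SE 0.06) with tazemetostat and rose by 0.52 (SE 0.06) with the combination.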
